A study of Ambystoma mexicanum with 3 samples.

Results

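The secreted signals of the Wnt, fibroblast growth factor (Fgf), bone morphogenetic protein (Bmp), growth and differentiation factor (Gdf) and transforming growth factor beta (Tgfb) families were measured in nuclei of amputated axolotl tail tips. Symbols were taken by name, as one of these 5 family names followed by a number and at most 1 letter, with *Bmp1*, a protease, left out. Of 46 such symbols in the feature list, 29 had at least 20 unique molecular identifiers (UMIs, each standing for 1 captured RNA molecule) over the libraries, of 11673 symbols in all that reached this minimum. They were 11 of 15 Wnt, 7 of 15 Fgf, 5 of 7 Bmp, 3 of 6 Gdf and 3 of 3 Tgfb symbols. By total UMIs, the Wnt symbols held 3904, the Fgf symbols 1658, the Bmp symbols 6023, the Gdf symbols 1886 and the Tgfb symbols 7643. The naming rule also took symbols that are not secreted ligands. They were kept, and counts and medians of ligands below include them. *Bmp2k* encodes a kinase, and *Fgf13* and *Fgf14* encode Fgf homologous factors that stay inside the cell and bind sodium channels.

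The 3 libraries held nuclei of axolotl embryos at stage 42, 1 library per condition. Rom 6 HPA came from embryos kept in 10 μM romidepsin, an inhibitor of histone deacetylases, until 6 h post amputation (HPA), Cont 6 HPA from untreated embryos at the same time, and 0 HPA from untreated embryos at amputation. Each 6 HPA library came from a pool of 100 embryos, the size of the 0 HPA pool is not given in the sources used here, and the sample labels give the later time as day 6 where the study's design gives hours. The comparison of Rom 6 HPA with Cont 6 HPA sets treated against untreated amputated tails, and that of Cont 6 HPA with 0 HPA sets 6 h after amputation against its time. With 1 library per condition, differences between conditions and between libraries cannot be told apart. In the study's methods romidepsin was dissolved in the solvent DMSO, and the untreated embryos of these libraries were in rearing water. Whether the 0 HPA tissue came from the same position along the tail is not given there.

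Wnt proteins bind Frizzled receptors and Lrp co-receptors and act through β-catenin or through other routes that steer cell shape and movement, Fgfs bind receptor tyrosine kinases, and Bmp, Gdf and Tgfb proteins bind pairs of serine and threonine kinase receptors that phosphorylate Smads. These families pattern the embryonic tail, and their signals are known to be needed for fin, limb and tail regeneration in fish and amphibians. Histone deacetylases remove acetyl groups from histones, and inhibitors of them change the transcription of many genes.

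Rom 6 HPA held 44735 nuclei with 58827729 UMIs (median 1079 per nucleus), Cont 6 HPA held 56936 nuclei with 105765943 UMIs (median 1623) and 0 HPA held 31522 nuclei with 42537606 UMIs (median 1019). The study's text gives the nuclei counts of the 6 HPA libraries the other way round, and the labels of the deposited files are followed here. Between 469 and 736 cell barcodes were shared by each pair of libraries, and 2.19 to 3.12% of the barcodes of a library occurred in at least 1 other. Nuclei with over 1.5 times the median UMIs of their library, called deep nuclei below, held 28.7% of the UMIs in Rom 6 HPA, 21.1% in Cont 6 HPA and 39.3% in 0 HPA. Since the medians differ, the cut-off in UMIs was highest in Cont 6 HPA. The 2 depth classes are thus relative to a library and are not matched in UMIs between libraries. Levels are given as UMIs of a symbol per 1000000 UMIs of the library (CPM), with exact Poisson 95% intervals for levels and exact conditional 95% intervals for ratios of CPM. These intervals cover counting error only and take UMIs of the same nucleus as independent. They may be too narrow where nuclei hold several UMIs of a symbol. Since each condition has a single library, the conditions were not tested against each other. In such sums, fewer cells of a type and less RNA per cell cannot be told apart. A ligand was counted as higher or lower where its CPM ratio was over 1.5 or under the inverse of 1.5 and the interval of the ratio did not hold 1.

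In Rom 6 HPA, 13 of the 29 symbols differed from Cont 6 HPA by this rule, 11 higher and 2 lower, where 8.44% of all symbols differed, 6.72% higher and 1.72% lower. Their median CPM ratio was 1.29, beside 1.02 over all symbols, and 23 of the 29 ratios were over 1. In Cont 6 HPA, 14 symbols differed from 0 HPA, 1 higher and 13 lower, where 19.8% of all symbols differed, 2.41% higher and 17.4% lower. Here the median ratio of the ligands was 0.684, beside 0.853 over all symbols. The fall of Cont 6 HPA relative to 0 HPA depends in part on scaling, since size factors from the median of ratios multiply each ratio of these libraries by 1.17 (0.22 on the log2 scale) and leave 1 ligand higher and 9 lower. Over all symbols the same scaling moved the share of calls that were higher in Cont 6 HPA to 37.6%, against 12.2% with scaling by total UMIs. Between Rom 6 HPA and 0 HPA, 2 ligands were higher (*Wnt10a* and *Wnt5b*) and 2 lower (*Gdf10* and *Wnt11b*), where 3.68% of all symbols were higher and 9.31% lower. The comparisons share libraries, so a low value in Cont 6 HPA enters the first and the second. Both called 9 ligands, and the share of all symbols called in both is not given here. Of the 9 ligands, *Wnt10a* was highest in Cont 6 HPA, and 8 (*Bmp2*, *Fgf14*, *Fgf17*, *Wnt2b*, *Wnt4*, *Wnt7a*, *Wnt8a* and *Wnt11*) had their lowest level there.

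**Figure D1:**
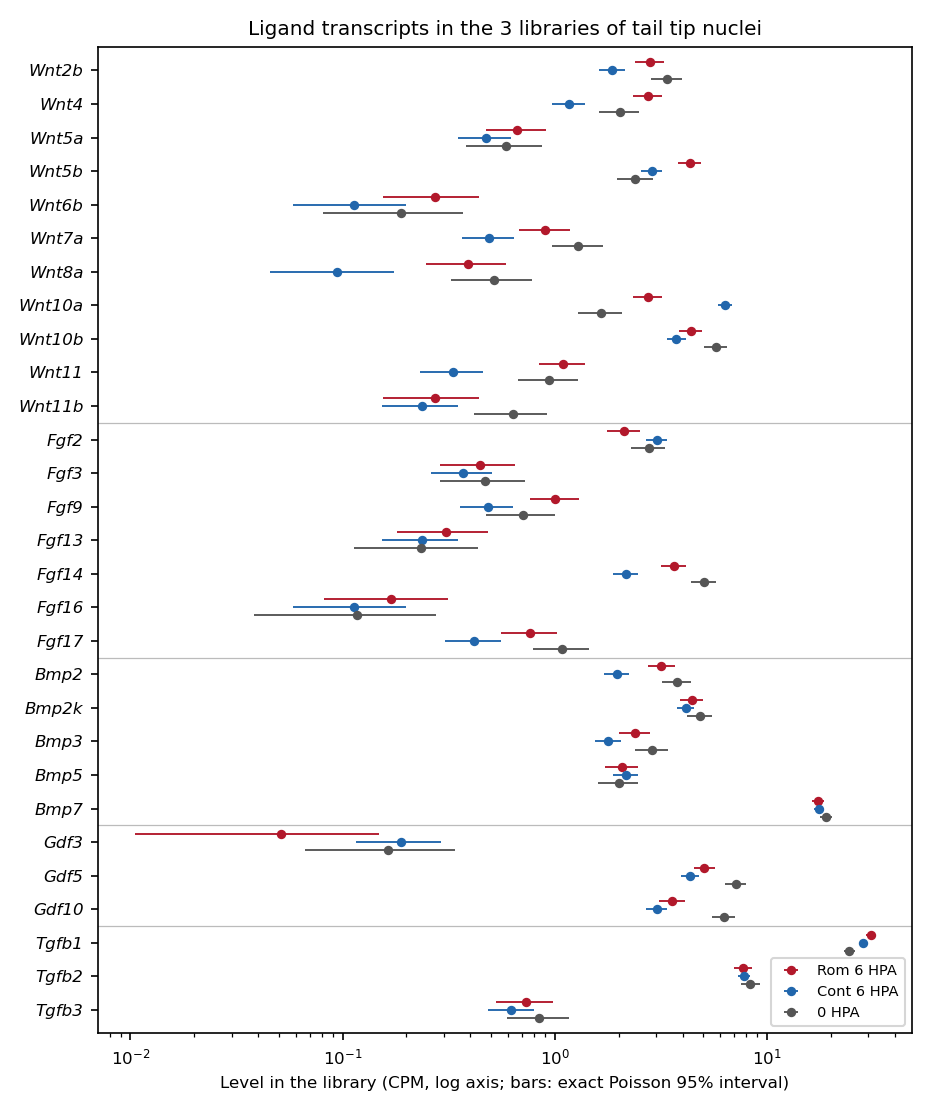
Level of each of the 29 symbols in Rom 6 HPA (red), Cont 6 HPA (blue) and 0 HPA (gray), in CPM on a log axis, with exact Poisson 95% intervals, ordered by family. *Wnt10a* is highest in Cont 6 HPA at 6.32 CPM, while *Wnt4*, *Wnt8a*, *Wnt11*, *Fgf17* and *Bmp2* are lowest there.

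*Wnt10a*, a Wnt of epidermis and skin appendages, was the one ligand that was higher in Cont 6 HPA than in 0 HPA by the rule. Rom 6 HPA held 162 UMIs (2.75 CPM, interval 2.35 to 3.21), Cont 6 HPA 668 UMIs (6.32 CPM, 5.85 to 6.81) and 0 HPA 70 UMIs (1.65 CPM, 1.28 to 2.08), all on a single feature (AC_02200136116.1). The intervals of the 3 libraries did not overlap, with Cont 6 HPA above Rom 6 HPA and Rom 6 HPA above 0 HPA. The CPM ratio of Rom 6 HPA over Cont 6 HPA was 0.436 (0.365 to 0.518), that of Cont 6 HPA over 0 HPA was 3.84 (3.0 to 4.98), and that of Rom 6 HPA over 0 HPA was 1.67 (1.26 to 2.25). The 6 HPA difference was present in both depth classes. In deep nuclei *Wnt10a* stood at 4.21, 11.4 and 2.93 CPM in Rom 6 HPA, Cont 6 HPA and 0 HPA, with a ratio of Rom 6 HPA over Cont 6 HPA of 0.368 (0.279 to 0.481). The other nuclei held 2.17, 4.95 and 0.814 CPM in the same order of libraries, with a ratio of 0.438 (0.345 to 0.551).

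By place, *Wnt10a* was raised in nuclei with markers of basal epidermis. Nuclei were grouped by marker genes of 12 cell types, where a marker counted as raised in a nucleus with at least 1 UMI and 5 times its share of the library, and a nucleus entered a type with at least 2 raised markers of that type and of no other. The name of a type was kept for 7 groups in which at least 3 separate check markers were over 2-fold higher than in other nuclei, and these groups are called muscle-like, endothelial-like, fibroblast-like, notochord-like, neuron-like, basal epidermis-like and ciliated-like. They held 10088 of 133193 nuclei (7.57%), so that 117028 nuclei were in no group, 844 had markers of more than 1 type and were left out, and 5233 were in groups whose names were not kept. In the 158 basal epidermis-like nuclei, *Wnt10a* had 53 UMIs (83.8 CPM, 62.7 to 110), which was 20.4-fold (15.2 to 27.0) its level in all other nuclei. Rom 6 HPA had 0 UMIs of it in 25 basal epidermis-like nuclei, Cont 6 HPA had 51 UMIs in 117 nuclei (101 CPM) and 0 HPA had 2 UMIs in 16 nuclei (36.1 CPM). The 51 UMIs of Cont 6 HPA lay in 33 of these nuclei. The interval of the count of 0 reached up to 51.2 CPM in the Rom 6 HPA nuclei, and that of the ratio of Rom 6 HPA over Cont 6 HPA reached up to 0.526. The ratio of Cont 6 HPA over 0 HPA was 2.80 with an interval of 0.736 to 23.7. The group itself differed in size between libraries, and of its 158 nuclei 147 had exactly 2 of its markers. Its assigning markers include *Krt17*, which the paper names among genes raised in regeneration and lowered by romidepsin. Which nuclei entered the group may therefore depend on the condition, and this was not tested. Nuclei in no group, here and below with the 844 nuclei of more than 1 type, carried most of the UMIs, with 136 in Rom 6 HPA, 513 in Cont 6 HPA and 51 in 0 HPA (2.73, 5.83 and 1.48 CPM). Among them the ratio of Rom 6 HPA over Cont 6 HPA was 0.468 (0.384 to 0.566) and that of Cont 6 HPA over 0 HPA was 3.95 (2.96 to 5.38).

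Several Wnts ran the other way, with their lowest level in Cont 6 HPA. *Wnt11*, a Wnt of convergent extension movements that acts mostly without β-catenin, had 64 UMIs in Rom 6 HPA (1.09 CPM), 35 in Cont 6 HPA (0.331 CPM) and 40 in 0 HPA (0.940 CPM). Its ratio of Rom 6 HPA over Cont 6 HPA was 3.29 (2.14 to 5.12), and that of Cont 6 HPA over 0 HPA was 0.352 (0.217 to 0.568). *Wnt4*, which acts in kidney and muscle development, had 161 UMIs in Rom 6 HPA (2.74 CPM), 123 in Cont 6 HPA (1.16 CPM) and 86 in 0 HPA (2.02 CPM). The ratios for *Wnt4* were 2.35 (1.85 to 3.0) for Rom 6 HPA over Cont 6 HPA and 0.575 (0.433 to 0.767) for Cont 6 HPA over 0 HPA. For both genes the intervals of Rom 6 HPA and Cont 6 HPA did not overlap, and those of Rom 6 HPA and 0 HPA did. The ratio of Rom 6 HPA over 0 HPA was 1.16 (0.767 to 1.76) for *Wnt11* and 1.35 (1.04 to 1.78) for *Wnt4*. That of *Wnt4* had an interval above 1 and was short of 1.5-fold. The difference between the 6 HPA libraries was called in deep nuclei (2.91-fold for *Wnt11* and 1.61-fold for *Wnt4*) and in the other nuclei (2.65-fold and 2.80-fold for the same genes). The *Wnt4* call of Cont 6 HPA against 0 HPA was lost in both depth classes (0.813 in deep nuclei and 0.676 in the others, with intervals that held 1), while at 0.671 with median of ratios scaling it lay just short of the threshold.

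*Wnt8a*, a Wnt of the tail-forming region of vertebrate embryos, was a rare transcript with 23 UMIs in Rom 6 HPA (0.391 CPM), 10 in Cont 6 HPA (0.0945 CPM) and 22 in 0 HPA (0.517 CPM). Rom 6 HPA was 4.14-fold (1.89 to 9.73) Cont 6 HPA, and Cont 6 HPA was 0.183-fold (0.0773 to 0.402) 0 HPA. The second of these held in deep and in other nuclei (0.167 and 0.190), and the first was called in the other nuclei (3.98-fold) but in deep nuclei, with 7, 2 and 9 UMIs in Rom 6 HPA, Cont 6 HPA and 0 HPA, its interval held 1. *Wnt7a*, a Wnt of the dorsal limb ectoderm and the nervous system, had 53, 52 and 55 UMIs in Rom 6 HPA, Cont 6 HPA and 0 HPA (0.901, 0.492 and 1.29 CPM). Its level in Rom 6 HPA was 1.83-fold (1.23 to 2.74) that in Cont 6 HPA, which was 0.380-fold (0.255 to 0.566) that in 0 HPA, and both calls were lost in nuclei that were not deep (1.49 and 0.550, with intervals that held 1). *Wnt2b*, a β-catenin Wnt of the eye and of mesoderm, had 165, 197 and 144 UMIs in the same libraries (2.80, 1.86 and 3.39 CPM), with ratios of 1.51 (1.22 to 1.86) and 0.550 (0.442 to 0.687). The *Wnt2b* difference between the 6 HPA libraries lay at the edge of the rule, at 1.47 with median of ratios scaling and 1.22 in nuclei that were not deep.

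Over all nuclei, *Wnt5b*, a Wnt that acts mostly without β-catenin, was higher with romidepsin than in either control library. It had 255 UMIs in Rom 6 HPA (4.33 CPM, 3.82 to 4.90), 302 in Cont 6 HPA (2.86 CPM, 2.54 to 3.20) and 102 in 0 HPA (2.40 CPM, 1.96 to 2.91). The ratio of Rom 6 HPA over Cont 6 HPA was 1.52 (1.28 to 1.80), close to the threshold, that of Rom 6 HPA over 0 HPA was 1.81 (1.43 to 2.30), and that of Cont 6 HPA over 0 HPA was 1.19 with an interval of 0.95 to 1.51. The first of these was 1.48 with median of ratios scaling, and in deep nuclei it was 1.19 and its interval held 1. In deep nuclei Cont 6 HPA was instead called higher than 0 HPA, at 1.61 (1.16 to 2.25). *Wnt5a*, its close relative, had 39, 50 and 25 UMIs in Rom 6 HPA, Cont 6 HPA and 0 HPA and passed the rule in neither comparison. Features of *Wnt5a* and *Wnt5b* share identifier stems in the transcript assembly, so reads of one may have been counted for the other.

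Of the remaining Wnts, *Wnt10b*, a β-catenin Wnt that holds back fat cell formation in mammals, had 257 UMIs in Rom 6 HPA (4.37 CPM), 396 in Cont 6 HPA (3.74 CPM) and 244 in 0 HPA (5.74 CPM). Cont 6 HPA was 0.653-fold (0.555 to 0.769) 0 HPA, and the ratio of Rom 6 HPA over Cont 6 HPA was 1.17 with an interval that held 1. The call against 0 HPA was lost with median of ratios scaling (0.762) and in both depth classes (0.918 in deep nuclei and 0.780 in the others, with intervals that held 1). Cont 6 HPA was also lower than 0 HPA for *Wnt11b*, by its symbol a second *Wnt11* gene, at 16, 25 and 27 UMIs in Rom 6 HPA, Cont 6 HPA and 0 HPA. Its ratio of Cont 6 HPA over 0 HPA was 0.372 (0.207 to 0.667) and that of Rom 6 HPA over 0 HPA was 0.428 (0.216 to 0.824). The first of these had an interval that held 1 in each depth class. *Wnt6b* was near the limit of detection, with 16, 12 and 8 UMIs in Rom 6 HPA, Cont 6 HPA and 0 HPA. Its ratio of Rom 6 HPA over Cont 6 HPA was 2.40 (1.06 to 5.55), and the interval held 1 in deep nuclei and when its most abundant feature alone was counted.

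**Figure D2:**
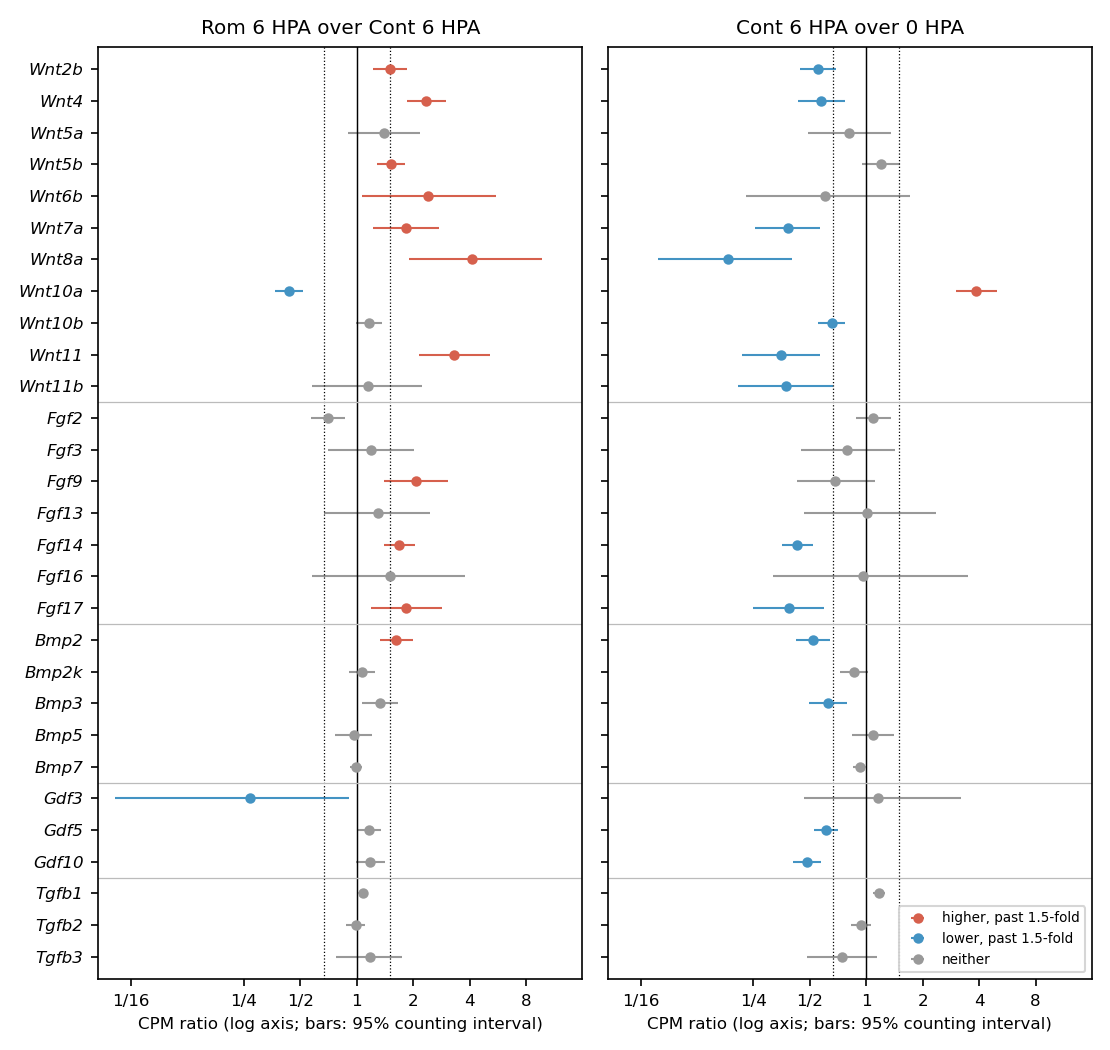
CPM ratios of the 29 symbols on log axes, Rom 6 HPA over Cont 6 HPA (left) and Cont 6 HPA over 0 HPA (right), with 95% counting intervals, the dotted lines marking 1.5-fold. On the left 11 symbols are higher (orange) and 2 lower (blue), and on the right *Wnt10a* is higher at 3.84 and 13 symbols are lower.

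Among secreted Fgfs, *Fgf9* passed the rule between the 6 HPA libraries in deep and in other nuclei. *Fgf9* encodes a secreted Fgf of mesenchyme and epithelium that acts in lung, gonad and skeletal development in mammals. It is also 1 of 2 ligands for which the study designed Nanostring hybridization targets. With its targets the study measured transcripts in replicate pools of embryos at each romidepsin concentration, and those values are not given here. The 100-base target region on contig37183, taken from the probe list of the study, is shown to identify the *Fgf9* transcript, with no letters set in capitals.
*Fgf9* target: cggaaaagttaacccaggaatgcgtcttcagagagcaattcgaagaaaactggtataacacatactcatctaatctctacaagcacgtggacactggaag
Rom 6 HPA held 59 UMIs of *Fgf9* (1.00 CPM, 0.763 to 1.29), Cont 6 HPA 51 UMIs (0.482 CPM, 0.359 to 0.634) and 0 HPA 30 UMIs (0.705 CPM, 0.476 to 1.01). The interval of Rom 6 HPA lay above that of Cont 6 HPA and overlapped that of 0 HPA. The ratio of Rom 6 HPA over Cont 6 HPA was 2.08 (1.41 to 3.09), at 2.18 in deep nuclei and 1.81 in the others, while Cont 6 HPA over 0 HPA was 0.684 (0.427 to 1.11). In muscle-like nuclei, a group picked here after its values were seen, Rom 6 HPA held 6 UMIs of *Fgf9* in 1693 nuclei (1.66 CPM, 0.609 to 3.61), Cont 6 HPA 0 UMIs in 2355 nuclei (up to 0.631 CPM) and 0 HPA 4 UMIs in 1392 nuclei (1.36 CPM, 0.370 to 3.48). The intervals of these levels overlapped, and that of the ratio of Rom 6 HPA over Cont 6 HPA began at 1.90.

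*Fgf17*, a relative of *Fgf8* that patterns the midbrain and hindbrain, had 45, 44 and 46 UMIs in Rom 6 HPA, Cont 6 HPA and 0 HPA (0.765, 0.416 and 1.08 CPM). Its ratios were 1.84 (1.19 to 2.85) for Rom 6 HPA over Cont 6 HPA and 0.385 (0.249 to 0.595) for Cont 6 HPA over 0 HPA, and the first had an interval that held 1 in each depth class and in nuclei of no marker group, as had the second in nuclei that were not deep (0.516). *Fgf2*, an Fgf without a classical signal peptide that acts in blood vessels and wounds, was lower with romidepsin but short of 1.5-fold. It had 125 UMIs in Rom 6 HPA (2.12 CPM), 319 in Cont 6 HPA (3.02 CPM) and 118 in 0 HPA (2.77 CPM), with ratios of 0.705 (0.568 to 0.869) and 1.09 (0.878 to 1.35). In nuclei of no marker group the *Fgf2* ratio of Rom 6 HPA over Cont 6 HPA was 0.663 and passed the rule. *Fgf3*, an Fgf of the inner ear and the tail bud, had 26, 39 and 20 UMIs in Rom 6 HPA, Cont 6 HPA and 0 HPA, and *Fgf16*, a relative of *Fgf9*, had 10, 12 and 5. Neither passed the rule, and their intervals were wide enough to hold a difference of 1.5-fold.

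The level of the intracellular factor *Fgf14* was raised in neuron-like nuclei, though most of its UMIs lay in other nuclei. It had 214 UMIs in Rom 6 HPA (3.64 CPM), 228 in Cont 6 HPA (2.16 CPM) and 214 in 0 HPA (5.03 CPM), with ratios of 1.69 (1.39 to 2.04) and 0.428 (0.354 to 0.519). In deep nuclei both calls were lost, at 1.08 (0.847 to 1.37) and 0.692 (0.553 to 0.865), and in the other nuclei both were kept. Of its UMIs, 237 lay in 688 neuron-like nuclei, at 145 CPM (127 to 164), 71.0-fold the level of other nuclei. Within neuron-like nuclei the level was 118 CPM in Rom 6 HPA, 136 CPM in Cont 6 HPA and 179 CPM in 0 HPA, with ratios of 0.866 (0.596 to 1.24) for Rom 6 HPA over Cont 6 HPA and 0.761 (0.568 to 1.02) for Cont 6 HPA over 0 HPA. Both intervals held 1. The 45, 104 and 88 UMIs of *Fgf14* in neuron-like nuclei of Rom 6 HPA, Cont 6 HPA and 0 HPA lay in 28, 58 and 53 nuclei. Nuclei of no group held 131 UMIs of *Fgf14* in Rom 6 HPA, 101 in Cont 6 HPA and 104 in 0 HPA. There *Fgf14* was 2.29-fold (1.75 to 3.0) higher in Rom 6 HPA than in Cont 6 HPA. Whether these ratios differ from each other was not tested. *Fgf13*, the other intracellular factor, had 18, 25 and 10 UMIs in Rom 6 HPA, Cont 6 HPA and 0 HPA, 20 of them in muscle-like nuclei, where it was 9.51-fold (5.17 to 17.1) its level elsewhere.

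Among Bmps, *Bmp2*, which acts in bone, heart and fin ray formation, had 187 UMIs in Rom 6 HPA (3.18 CPM, 2.74 to 3.67), 207 in Cont 6 HPA (1.96 CPM, 1.70 to 2.24) and 160 in 0 HPA (3.76 CPM, 3.20 to 4.39). Rom 6 HPA was 1.62-fold (1.33 to 1.99) Cont 6 HPA, which was 0.520-fold (0.421 to 0.644) 0 HPA. *Bmp2* depended most on depth among the 29 symbols. Its level was 9.48-fold (7.74 to 11.7) higher in deep nuclei than in the others. Within deep nuclei the libraries held 8.06, 7.03 and 8.25 CPM in Rom 6 HPA, Cont 6 HPA and 0 HPA, and neither ratio (1.15 and 0.852) had an interval without 1. In the other nuclei Rom 6 HPA was still called higher than Cont 6 HPA, a call kept in 7 of 8 alternatives and lost in deep nuclei only. The ratio of Cont 6 HPA over 0 HPA there was 0.703 in nuclei that were not deep, and its interval held 1 as well. *Bmp3*, which opposes other Bmps in bone, had 140 UMIs in Rom 6 HPA (2.38 CPM), 189 in Cont 6 HPA (1.79 CPM) and 122 in 0 HPA (2.87 CPM), with a ratio of 0.623 (0.494 to 0.789) for Cont 6 HPA over 0 HPA that was 1.07 in deep nuclei alone and 0.727 with median of ratios scaling. Its ratio of Rom 6 HPA over Cont 6 HPA was 1.33 (1.06 to 1.67), short of 1.5-fold. That ratio passed in nuclei that were not deep (1.56, 1.08 to 2.26) and without the 6% deepest nuclei (1.94). In 6 of 8 alternatives it did not pass, and the lowest ratio was 0.945.

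*Bmp7*, a Bmp of kidney, eye and skin, did not pass the rule in either comparison, and its intervals were narrow. Rom 6 HPA had 1023 UMIs (17.4 CPM), Cont 6 HPA 1850 (17.5 CPM) and 0 HPA 807 (19.0 CPM), with ratios of 0.994 (0.920 to 1.07) and 0.922 (0.848 to 1.00). *Bmp5*, its relative, had 122, 228 and 85 UMIs in Rom 6 HPA, Cont 6 HPA and 0 HPA, at ratios of 0.962 (0.766 to 1.20) and 1.08 (0.837 to 1.40). The features of *Bmp5* and *Bmp7* share an identifier stem, so their counts may not be fully separate. The kinase *Bmp2k* had 260, 438 and 205 UMIs in the same libraries, at ratios of 1.07 and 0.859, and did not pass the rule.

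*Gdf10*, a relative of *Bmp3*, was lower in both 6 HPA libraries than at amputation. It had 210 UMIs in Rom 6 HPA (3.57 CPM, 3.10 to 4.09), 319 in Cont 6 HPA (3.02 CPM, 2.69 to 3.37) and 266 in 0 HPA (6.25 CPM, 5.52 to 7.05). The ratio to 0 HPA was 0.571 (0.474 to 0.687) for Rom 6 HPA and 0.482 (0.409 to 0.570) for Cont 6 HPA, the second being 0.612 in deep nuclei and 0.619 in the others. *Gdf10* was raised in ciliated-like nuclei, with 61 UMIs in 783 nuclei (26.5 CPM), 7.38-fold (5.59 to 9.59) the level of other nuclei. In these nuclei Rom 6 HPA had 5 UMIs (7.73 CPM), Cont 6 HPA 27 UMIs (24.2 CPM) and 0 HPA 29 UMIs (53.3 CPM), so that both steps went down, with ratios of 0.319 (0.0960 to 0.841) for Rom 6 HPA over Cont 6 HPA and 0.454 (0.259 to 0.794) for Cont 6 HPA over 0 HPA. In nuclei of no group the ratio of Rom 6 HPA over Cont 6 HPA was 1.36 (1.12 to 1.66), and whether it differs from that of ciliated-like nuclei was not tested.

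*Gdf5*, a factor of joint formation, was summed from features with the suffixed symbols *Gdf5.1* and *Gdf5.2*. The most abundant feature had 194, 259 and 182 UMIs in Rom 6 HPA, Cont 6 HPA and 0 HPA, and the next 70, 162 and 103. Relative to library totals, Rom 6 HPA was above Cont 6 HPA for the first feature and below it for the next. Whether the features are separate genes is not known here, so the sum may mix them. *Gdf5* as summed had 298 UMIs in Rom 6 HPA (5.07 CPM), 459 in Cont 6 HPA (4.34 CPM) and 304 in 0 HPA (7.15 CPM), with ratios of 1.17 (1.01 to 1.35) and 0.607 (0.524 to 0.704). The second did not pass with median of ratios scaling (0.708) or in either depth class (0.851 in deep nuclei and 0.814 in the others, with intervals that held 1). In muscle-like nuclei it was 3.45-fold (2.93 to 4.04) its level elsewhere, and there Rom 6 HPA had 10.5 CPM, Cont 6 HPA 17.3 CPM and 0 HPA 17.7 CPM, a ratio of Rom 6 HPA over Cont 6 HPA of 0.608 (0.407 to 0.891). *Gdf3*, a Nodal-related factor of the early embryo in mammals, had 3 UMIs in Rom 6 HPA, 20 in Cont 6 HPA and 7 in 0 HPA. Its ratio of Rom 6 HPA over Cont 6 HPA was 0.270 with an interval of 0.0513 to 0.909, which held 1 in each depth class.

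None of the 3 Tgfb genes passed the rule. *Tgfb1*, a signal of wound healing, matrix deposition and immune restraint, had 1813 UMIs in Rom 6 HPA (30.8 CPM), 3012 in Cont 6 HPA (28.5 CPM) and 1040 in 0 HPA (24.4 CPM). Its ratios of 1.08 (1.02 to 1.15) for Rom 6 HPA over Cont 6 HPA, 1.16 (1.09 to 1.25) for Cont 6 HPA over 0 HPA and 1.26 (1.17 to 1.36) for Rom 6 HPA over 0 HPA had intervals above 1 and did not reach 1.5-fold. *Tgfb2*, which acts in heart and skeletal development, had 454, 824 and 355 UMIs in Rom 6 HPA, Cont 6 HPA and 0 HPA, at ratios of 0.991 (0.881 to 1.11) and 0.934 (0.823 to 1.06). *Tgfb3*, a factor of palate closure in mammals, had 43, 66 and 36 UMIs, at ratios of 1.17 and 0.737 with intervals that held 1.

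The marker groups, with 7.57% of the nuclei, showed where ligands were raised rather than where most of their UMIs lay. *Tgfb1*, for example, had 236 UMIs in fibroblast-like nuclei. In nuclei of no group it had 1577 in Rom 6 HPA, 2501 in Cont 6 HPA and 878 in 0 HPA. With at least 5 UMIs in a group and the whole interval of the ratio above 1.5, 22 of 29 symbols were raised in at least 1 of the 7 groups, where 33.3% of all symbols were. The groups were mostly deeper than their libraries. In deep nuclei 25 of the 29 symbols were higher, at a median ratio of 2.97 beside 1.31 over all symbols. The part of depth in the count of 22 was not tested. Fibroblast-like nuclei, in which 7.57% of all symbols were raised, had 10 of the raised ligands, *Bmp2*, *Bmp3*, *Bmp5*, *Gdf10*, *Tgfb1*, *Tgfb2*, *Wnt2b*, *Wnt5a*, *Wnt11* and *Wnt11b*. Here *Wnt11* was 5.42-fold (2.95 to 9.30), *Wnt5a* 5.27-fold (2.64 to 9.62) and *Bmp3* 3.31-fold (2.22 to 4.77) the level of other nuclei. *Tgfb1* had 52.2 CPM in fibroblast-like nuclei, and its level there was 41.1 CPM in Rom 6 HPA, 66.4 CPM in Cont 6 HPA and 37.2 CPM in 0 HPA. These gave ratios of 0.619 (0.443 to 0.854) for Rom 6 HPA over Cont 6 HPA and 1.78 (1.25 to 2.6) for Cont 6 HPA over 0 HPA. In the whole libraries the same ratios were 1.08 and 1.16, and whether they differ from those of the group was not tested. In the group, the 53, 143 and 40 UMIs of *Tgfb1* in Rom 6 HPA, Cont 6 HPA and 0 HPA lay in 52, 104 and 35 nuclei. The intervals take UMIs of the same nucleus as independent. Fibroblast-like nuclei had medians of 1045, 1711 and 1214 UMIs in the same order. Which nuclei entered the group may depend on the condition, and this was not tested.

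Ciliated-like nuclei had 5 raised ligands (*Bmp2*, *Gdf10*, *Wnt4*, *Wnt7a* and *Wnt10b*), where 14% of all symbols were raised. *Wnt7a* was 7.20-fold (3.64 to 13.0) and *Wnt4* 4.01-fold (2.27 to 6.61) higher there than in other nuclei, on 12 and 16 UMIs. Notochord-like nuclei had *Tgfb2*, with 46 UMIs in 190 nuclei (62.7 CPM), 8.15-fold (5.94 to 10.9) over other nuclei, and 52.9, 57.4 and 84.1 CPM in Rom 6 HPA, Cont 6 HPA and 0 HPA. Endothelial-like nuclei had *Bmp2* (6.25-fold on 14 UMIs) and *Bmp2k* (5.18-fold on 19 UMIs), and neuron-like nuclei had *Fgf17* (8.96-fold on 9 UMIs) beside *Fgf14*. In basal epidermis-like nuclei *Bmp7* was 2.32-fold (1.51 to 3.41) over other nuclei, beside *Wnt10a*. Muscle-like nuclei had 6 (*Bmp2*, *Fgf13*, *Gdf3*, *Gdf5*, *Tgfb3* and *Wnt10b*), where 8.53% of all symbols were raised, with *Tgfb3* at 4.99-fold (3.31 to 7.37). The share of all symbols raised was 6.04% in notochord-like, 9.69% in endothelial-like, 10.3% in neuron-like and 5.09% in basal epidermis-like nuclei.

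The groups are ranges of a marker count rather than cell types, and most of their nuclei had exactly 2 markers, for example 3450 of 5440 muscle-like and 2383 of 2521 fibroblast-like nuclei. The median nucleus of each named group had 0 raised markers of any other type. The check markers were clear in neuron-like nuclei, where 6 of 6 were over 2-fold higher and *Kif1a* was 48.4-fold higher, and in endothelial-like nuclei, where *Stab2* was 70.2-fold higher. They were weaker in fibroblast-like nuclei, where *Fap* was 6.77-fold, *Dpt* 3.36-fold, *Twist2* 2.21-fold and *Mfap2* 2.02-fold higher, *Col5a2* was at 1.77-fold and *Fbn1* at 0.378-fold. They were also weaker in muscle-like nuclei, where 3 of 8 passed, and the abundant muscle genes *Ckm* and *Mylpf* were 1.38-fold and 1.06-fold their level in all other nuclei, at 4413 and 10116 CPM outside the group. Transcripts of muscle were thus common outside the muscle-like nuclei, and the part of free RNA in the ligand levels was not tested. The median nucleus of each named group was deeper than that of its library, except in fibroblast-like nuclei of Rom 6 HPA (1045 against 1079 UMIs).

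**Figure D3:**
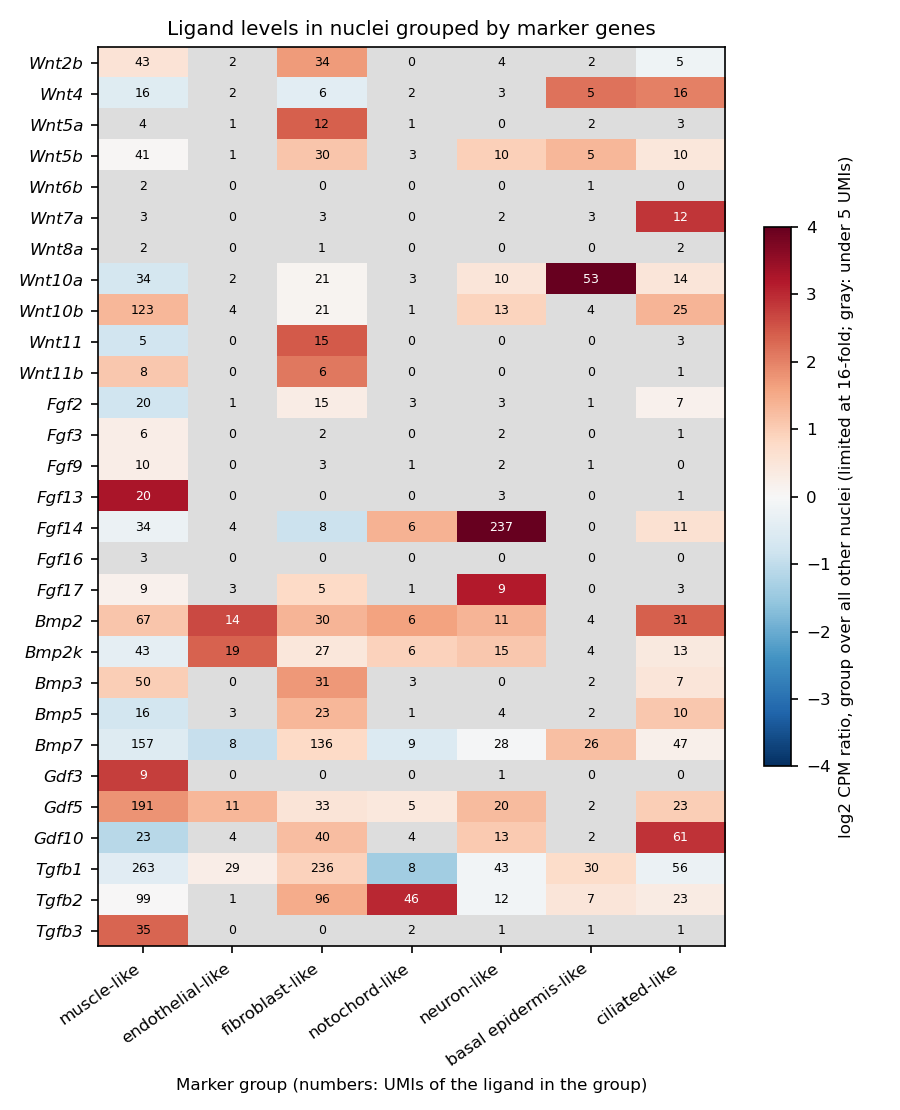
Level of each symbol in 7 marker groups relative to all other nuclei, as log2 CPM ratio by colour (limited at 16-fold), with the UMIs of the ligand in the group printed and fields under 5 UMIs in gray. The strongest fields are *Fgf14* in neuron-like nuclei (237 UMIs) and *Wnt10a* in basal epidermis-like nuclei (53 UMIs).

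Depth moved with the libraries and with the ligands. Over the 3 libraries together, 25 of the 29 symbols were higher in deep nuclei than in the others with an interval above 1, at a median ratio of 2.97 and a range of 0.887 (*Fgf3*) to 9.48 (*Bmp2*), and 0 were lower with an interval under 1. Over all symbols 53% were higher in deep nuclei and 28.4% lower by the same rule, at a median ratio of 1.31. *Fgf2* (0.949), *Fgf3*, *Fgf16* (2.16) and *Wnt8a* (1.32) had intervals that held 1. The share of UMIs in deep nuclei was lowest in Cont 6 HPA, as were the levels of 20 of the 29 symbols, so each ratio was computed again within a depth class. What share of all symbols was lowest in Cont 6 HPA is not given here. For Rom 6 HPA over Cont 6 HPA, 13 of 13 called ligands kept their direction in both classes and 4 passed the rule in both, *Wnt4*, *Wnt10a*, *Wnt11* and *Fgf9*. For Cont 6 HPA over 0 HPA, 12 of 14 kept their direction in both classes and 4 passed in both, *Wnt8a*, *Wnt10a*, *Wnt11* and *Gdf10*. The exceptions in direction were *Wnt2b*, at 1.09 in nuclei that were not deep, and *Bmp3*, at 1.07 in deep nuclei. The called symbols were picked by ratios over all nuclei, which the classes divide, so direction was in part set by the choice. A kept direction includes ratios near 1, such as that of *Fgf14* between the 6 HPA libraries, 1.08 in deep nuclei. The same shares among all called symbols are not given here. In deep nuclei the median ratio of the ligands was 0.992 for Rom 6 HPA over Cont 6 HPA and 0.937 for Cont 6 HPA over 0 HPA. Over nuclei that were not deep the same medians were 1.48 and 0.793. Medians over all symbols within these depth classes are not given here.

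**Figure D4:**
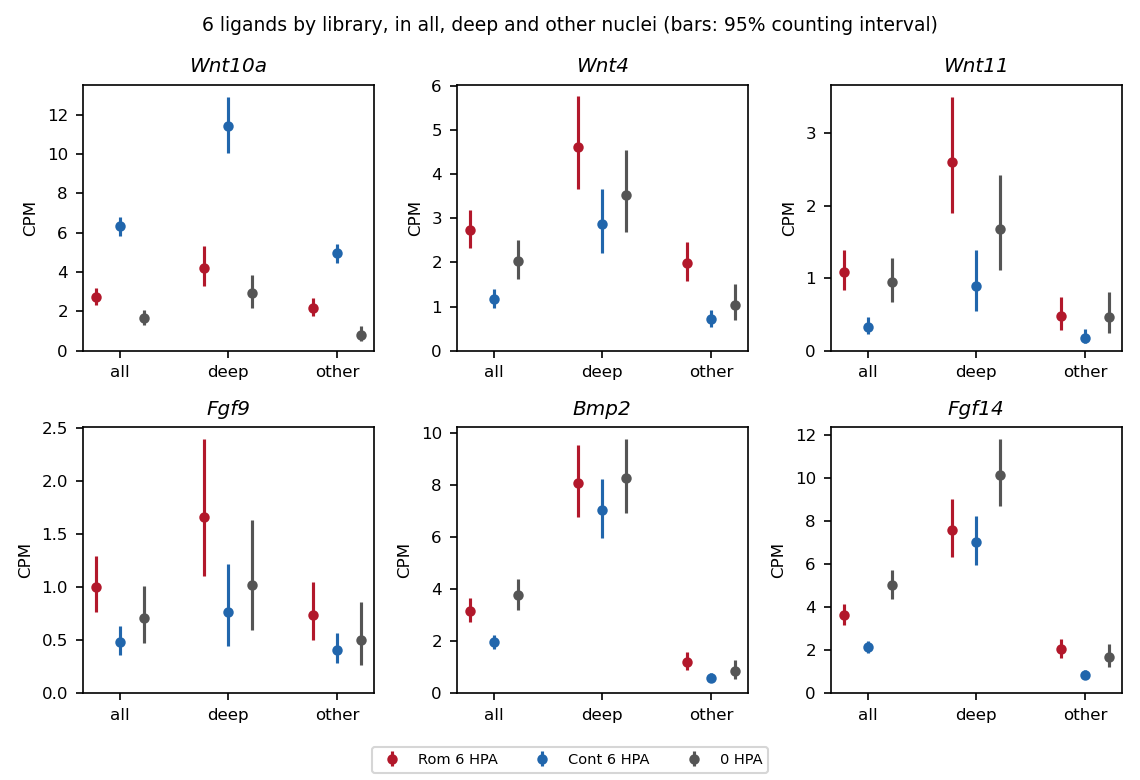
CPM of 6 symbols in Rom 6 HPA (red), Cont 6 HPA (blue) and 0 HPA (gray), over all nuclei, deep nuclei and other nuclei, with 95% counting intervals. *Wnt10a* stays highest in Cont 6 HPA in both depth classes, and *Bmp2* and *Fgf14* in deep nuclei of the 6 HPA libraries have intervals that overlap.

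Receptors, inhibitors and targets of these pathways were read from 10 lists, of whose 93 genes 70 had at least 20 UMIs. In Rom 6 HPA against Cont 6 HPA, 12 of the 70 were higher and 2 lower, at a median ratio of 1.17, where 6.72% of all symbols were higher and 1.72% lower, at a median of 1.02. In Cont 6 HPA against 0 HPA 0 were higher and 13 lower, at a median of 0.836, which was near the 17.4% of all symbols that were lower and their median of 0.853. The lists are small and their counts below are read against these shares. Calls of these genes with median of ratios scaling are not given here. That scaling multiplies ratios of Rom 6 HPA over Cont 6 HPA by 0.973 and those of Cont 6 HPA over 0 HPA by 1.17. Calls near the threshold thus depend on scaling. Among 11 Wnt receptors, 4 were higher with romidepsin, *Fzd3* (1.63), *Fzd7* (3.43), *Fzd8* (1.78) and *Ror2* (1.58), and 0 were lower. *Fzd7*, a Frizzled receptor for several Wnts, had 2.14 CPM in Rom 6 HPA, 0.624 CPM in Cont 6 HPA and 2.30 CPM in 0 HPA. Among 10 Wnt inhibitors, *Sfrp5*, which binds Wnts outside the cell, was higher (1.78) and *Dkk1*, which blocks Lrp co-receptors, was lower (0.563, with 3.08 CPM in Rom 6 HPA, 5.46 CPM in Cont 6 HPA and 5.45 CPM in 0 HPA). *Nkd1*, 1 of 2 Wnt targets measured, was higher with romidepsin (1.54, close to the threshold), and the other, *Axin2*, was at 1.16 and did not pass.

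For Fgf signals, 1 of 3 receptors (*Fgfrl1*, a receptor without a kinase domain, 1.93) and 2 of 8 inhibitors and targets (*Spry1*, 3.42, and *Il17rd*, 1.82) were higher in Rom 6 HPA than in Cont 6 HPA. *Spry1*, a feedback inhibitor of receptor tyrosine kinases, had 42.5 CPM in Rom 6 HPA, 12.4 CPM in Cont 6 HPA and 18.6 CPM in 0 HPA. Of 12 Bmp and Tgfb receptors, 0 passed in this comparison, and of 9 Bmp inhibitors *Grem1* was lower (0.646). Of 7 genes of Tgfb latency and inhibition, 3 were higher, *Smad7* (2.33), *Ski* (1.76) and *Ltbp1* (1.53, close to the threshold), and of 7 Bmp and Tgfb targets 0 passed. In Cont 6 HPA against 0 HPA the lower genes included *Fzd7* (0.271), *Lrp6* (0.545), *Dkk2* (0.410), *Axin2* (0.637), *Bmpr2* (0.602), *Id2* (0.499) and *Msx2* (0.581), the last pair being transcription regulators induced by Bmps. The others were *Fzd3*, *Sfrp5*, *Il17rd*, *Eng*, *Grem1* and *Ltbp2*, at ratios of 0.559 to 0.647. Most of these lower calls lay close enough to the threshold to depend on scaling. They were those of *Axin2*, *Bmpr2*, *Msx2*, *Fzd3*, *Sfrp5*, *Il17rd*, *Eng* and *Ltbp2*.

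The 17 symbols under 20 UMIs were *Bmp6*, *Bmp10*, *Fgf1*, *Fgf7*, *Fgf8*, *Fgf10*, *Fgf12*, *Fgf20*, *Fgf21*, *Fgf23*, *Gdf6*, *Gdf11*, *Gdf15*, *Wnt1*, *Wnt3a*, *Wnt6* and *Wnt9a*. Of these, 7 had 0 UMIs over all 3 libraries, *Bmp10*, *Fgf1*, *Fgf10*, *Fgf21*, *Gdf6*, *Gdf15* and *Wnt1*. *Fgf8*, a main Fgf of limb buds and of axolotl limb blastemas, had 2 UMIs in all, and *Wnt3a*, a Wnt of the tail bud, had 18. In single libraries a count of 0 was taken to allow up to 3 UMIs, a smaller limit than the Poisson intervals above give. It stands at 0.0510 CPM in Rom 6 HPA, 0.0284 CPM in Cont 6 HPA and 0.0705 CPM in 0 HPA. Lower levels were thus not detectable at this depth.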

How the data were processed

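Nuclei were prepared for sequencing on the 10x platform (v3). Per the study's methods, the authors aligned reads against an axolotl assembly of transcripts, with UMIs counted by Cell Ranger (3.0.2 in the file headers, 6.0.0 in the submitters' processing notes), and the deposited values are whole-number counts for 91648 features, without normalization. The genome build is not given in the sources used here. Features were summed by symbol after removing suffixes, since splitting reads over features would lower a gene, and scaled by library totals to CPM. Of the 29 symbols, 26 are in the RefSeq axolotl gene list, and *Gdf3*, *Wnt6b* and *Wnt11b* are not, so their identity rests on the symbols of the transcript assembly. Named in full were ligands past 1.5-fold and the 3 with the most UMIs per family. Every deposited nucleus was kept in library sums, and no doublet caller was run. Python 3.11.15 with numpy, pandas and scipy was used, and the scripts were tested on simulated data. Members, marker lists, pathway lists and alternatives were chosen with earlier results of these data known.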

Additional observations from a re-analysis of the deposited data

How the results depend on the processing

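No paired analysis was possible because each condition has 1 library. With a rule of 2-fold, 7 ligands differed between Rom 6 HPA and Cont 6 HPA (5 higher, 2 lower) and 8 between Cont 6 HPA and 0 HPA (1 higher, 7 lower). In nuclei over 1.5 times the median UMIs of their library these counts were 6 and 8, and the median ratios 0.992 and 0.937. In the remaining nuclei 6 ligands differed between Cont 6 HPA and 0 HPA, against 14 over all nuclei. In this comparison *Wnt2b* turned to 1.09 in nuclei up to 1.5 times the median and *Bmp3* to 1.07 in deeper nuclei, and the cause was not tested. Median of ratios scaling gave counts of 11 and 10, a minimum of 100 UMIs 10 and 12, and leaving out the 6% of nuclei with the most UMIs 12 and 14. The most abundant feature alone, suffixed symbols kept apart, no minimum and fold alone gave 12 to 13 and 14 to 15. After seeing the data, nuclei in no marker group (12 and 14) and nuclei without shared barcodes (13 and 14) were added. Of all symbols, 13.2% and 25.6% passed with fold alone, and for the other settings such shares are not given here. When 1 more marker was needed, 18 of 29 ligands kept the marker group with their highest level, among them *Fgf14*, *Wnt10a*, *Gdf10* and *Tgfb2*. Those that moved included *Bmp2* (endothelial-like to fibroblast-like), *Wnt10b* (ciliated-like to muscle-like) and *Wnt11b* (fibroblast-like to muscle-like). *Bmp3* and *Gdf5* moved to basal epidermis-like nuclei, on 1 and 2 UMIs in 13 nuclei. Depth limits ligands with few UMIs, whose intervals were wide.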
